A study of Rattus norvegicus with 8 samples.

Results

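Axon guidance ligands and receptors were examined as semaphorins of classes 3 to 7, plexins, ephrins, Eph receptors, netrins, Slits, Robo receptors and Unc5 receptors. They were chosen by gene symbol alone, and 57 of the 16514 symbols listed in either tissue's table carried such a name. Unc50 and Unc5cl share the letters but are no netrin receptors, which left 55 guidance genes. Of these, 54 were listed for both tissues and Sema6b for hypothalamus only.

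The libraries came from hippocampus or hypothalamus of rats of the Sprague Dawley strain, an outbred stock, all male. They were 2 months old at the start and took an n-3 fatty acid diet, which the labels call DHA, with 15% fructose in the drinking water for 6 weeks. There were 4 libraries for each tissue, and all 8 came from this diet arm, so tissues were compared and diets were not. The labels number the libraries without saying whether each came from its own animal, so the spread between them may be partly technical. Levels are FPKM, fragments per kilobase of transcript relative to the mapped fragments of the library, scaled here by 1 factor per library. Since each tissue has its own table, tissue and table cannot be told apart, so calls between tissues rest on separated libraries and size. A limma fit was run only as an alternative to these calls.

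Guidance proteins steer growing axons and migrating neurons by attraction or repulsion at the growth cone. Semaphorins act mainly through plexins, with neuropilins as co-receptors for most secreted ones. Ephrins, which stay on the cell surface, bind Eph receptor tyrosine kinases on neighbouring cells. Netrins act through DCC and Unc5 receptors, and Slits through Robo receptors. In the adult brain many of these proteins remain in use at synapses, in glia and in vessels.

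The tissue labels were checked against defining markers. All 7 hippocampal neuron markers that passed the filter were lower in hypothalamus, where they summed to 23.0 to 32.0 FPKM against 939 to 1554 in hippocampus. Another of that list, Fibcd1, was listed at 0 in all 8 libraries. All 9 hypothalamic markers that passed were higher in hypothalamus. The list of these markers summed to 5717 to 10744 FPKM there and 3.30 to 10.3 in hippocampus. Except for Hcrt, their hippocampal means were under 1 FPKM, so passing the filter already fixed the direction of their means. The same held for Neurod6, Neurod2 and Slc17a7 of the hippocampal list. The check therefore rests on the size of the levels and not on these counts. Hippocampus replicates 3 and 4 stood apart in choroid plexus transcripts: the 5 listed markers summed to 6801 and 5092 FPKM there against 59.6 and 79.5 in replicates 1 and 2. Replicate 1 of each tissue stood apart in how FPKM was split between loci of 1 symbol. The smaller of 2 loci held a median of 1.48% of the sum in hippocampus replicate 1 and 21.0% to 22.3% in the other 3 hippocampal libraries. The summed value of a symbol was therefore used throughout. Hypothalamus replicate 1 was the lowest of its 4 libraries for 34 of 49 guidance genes (69.4%) and for 41.4% of all genes. Hippocampus replicate 4 was the lowest for 28 of 49 (57.1%) and for 28.4% of all genes.

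Several guidance genes were far more abundant in hippocampus: Sema7a 8.53-fold, Epha7 9.74-fold, Sema3e 6.12-fold, Slit1 5.85-fold, Epha4 5.79-fold and Plxnb3 5.17-fold by the ratio of means. Efna5, Sema4a, Sema3f, Sema3c and Sema4g were higher in hypothalamus, by 3.67-fold at most. A gene was called where the 4 libraries of each tissue did not overlap and the mean difference of log2(FPKM + 1) was at least 1, which understates differences of low genes. Of the 54 genes, 49 had a mean across the 8 libraries of 1 FPKM or more and so passed the filter, and Epha1, Epha2, Ntn5, Robo3 and Robo4 did not. Among the 49, 5 were called higher in hypothalamus (10.2%), against 13.3% of all 10554 genes compared. A further 10 were called lower (20.4%), against 13.4% of all genes. Without hippocampus replicates 3 and 4 the counts were 4 and 14, against 15.2% and 14.6% of all genes. With values as deposited they were 7 and 9, against 18.1% and 9.62% of all genes. Hippocampal neuron markers were lower beside the 10, and their part was not tested. Libraries separated at any size for 26 of the 49 (53.1%) and for 53.4% of all genes. The median difference was -0.17 for the 49 and -0.12 for all 54, beside -0.04 and 0 for all genes. So the share of genes that separated was near the background, and the sign of the median turned to 0.03 with values as deposited, when the median of all genes moved to 0.18.

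**Figure D1:**
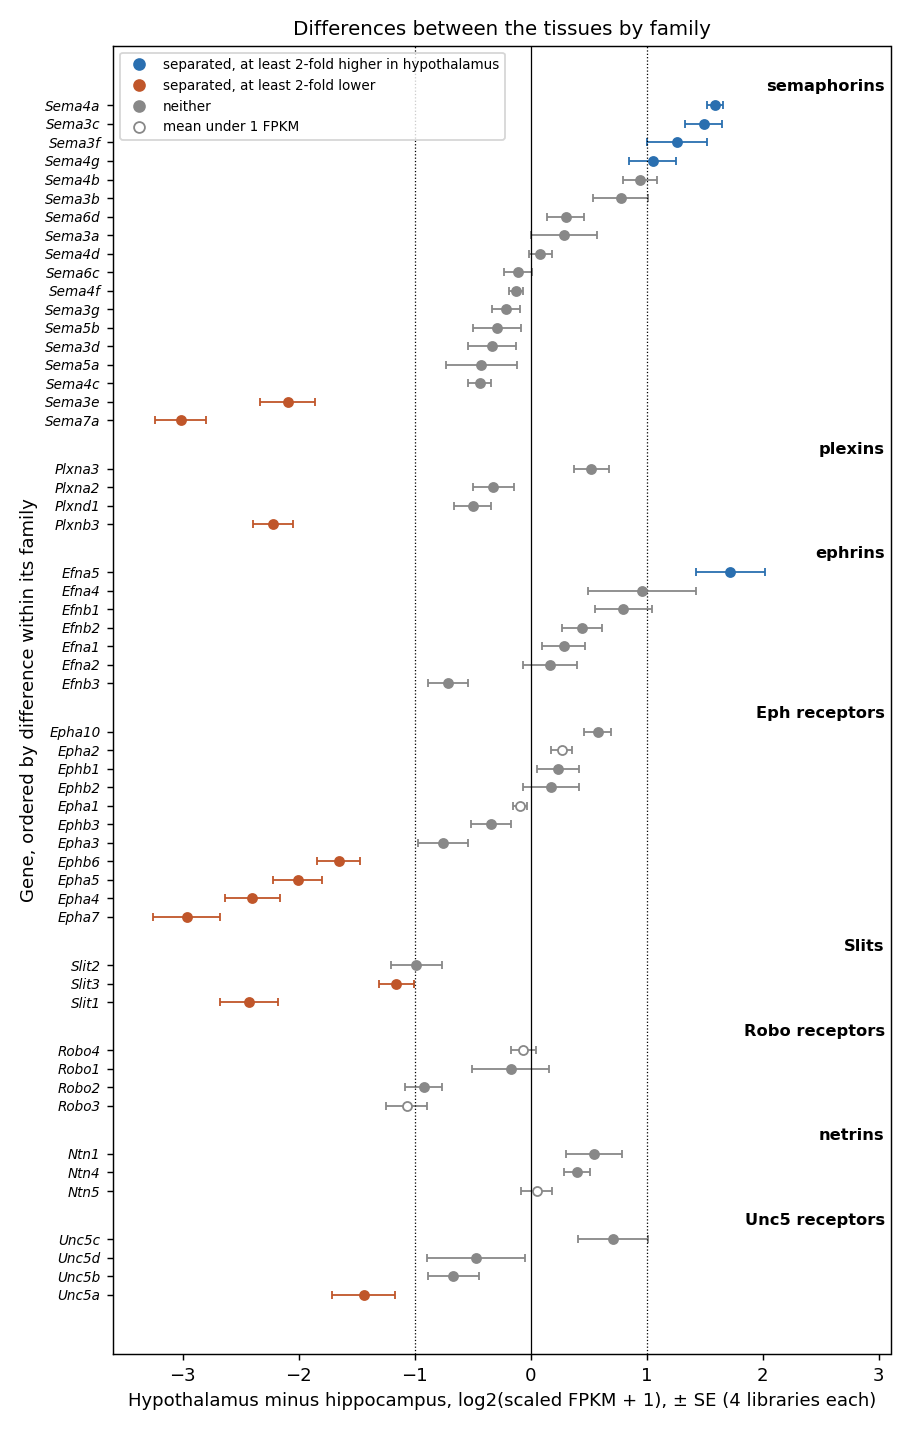
Difference between hypothalamus and hippocampus in log2(FPKM + 1) for the guidance genes, by family, as mean and standard error over 4 libraries a tissue. Sema7a and Epha7 lie farthest to the lower side, at -3.02 and -2.97, and Efna5 and Sema4a farthest to the higher side, at 1.72 and 1.59.

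Ligands and receptors were counted apart, and the difference between their counts was not tested. Of 30 ligands that passed, 5 were called higher in hypothalamus and 4 lower, with a median difference of 0.22. Of 19 receptors, none was called higher and 6 were called lower, with a median of -0.50. The shares over all genes were 13.3% higher and 13.4% lower, and the ligands' share lower was near this background. The receptors summed to 369 ± 59.0 FPKM in hippocampus and 156 ± 17.9 in hypothalamus (SD, n = 4). The ligands summed to 482 ± 69.4 and 328 ± 34.8 FPKM, so a lower sum in hypothalamus was not particular to receptors. In bulk tissue, fewer cells of a type and less RNA per cell cannot be told apart.

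**Figure D2:**
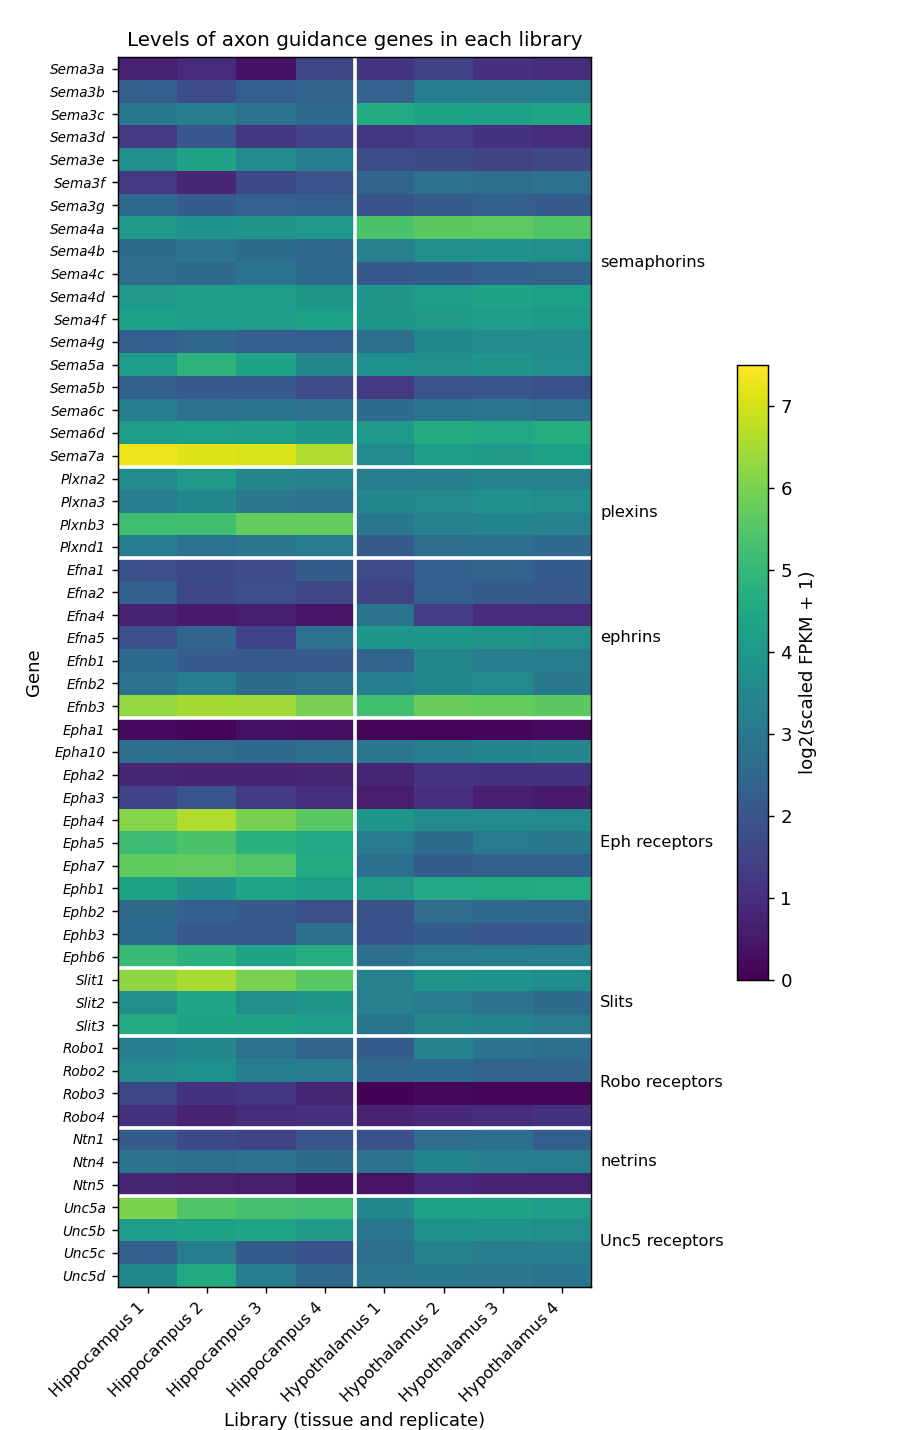
Level of each guidance gene as log2(FPKM + 1), with genes in rows by family and the 4 hippocampal and 4 hypothalamic libraries in columns. Sema7a has the brightest hippocampal cells, at 97.2 to 158 FPKM, and 10.7 to 18.2 FPKM in hypothalamus.

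Promoter windows are shown for the 2 genes with the largest differences in each direction, a choice made by rank alone. Each runs from 250 bases before to 50 bases after the gene's start in RefSeq on the rat build GRCr8, 5′ to 3′ on the gene's strand. Capitals mark GGGCGG (the GC box), CAGCTG (an E-box), CCAAT and TATAAA on either strand.
Sema7a, chr8:67244068-67244367, plus strand: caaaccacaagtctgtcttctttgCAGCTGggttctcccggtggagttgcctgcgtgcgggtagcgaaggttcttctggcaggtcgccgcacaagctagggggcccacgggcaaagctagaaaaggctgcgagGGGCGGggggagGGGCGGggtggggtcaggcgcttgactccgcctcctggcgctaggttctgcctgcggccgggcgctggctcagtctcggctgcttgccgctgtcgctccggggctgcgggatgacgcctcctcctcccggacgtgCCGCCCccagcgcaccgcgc
Epha7, chr5:47771643-47771942, plus strand: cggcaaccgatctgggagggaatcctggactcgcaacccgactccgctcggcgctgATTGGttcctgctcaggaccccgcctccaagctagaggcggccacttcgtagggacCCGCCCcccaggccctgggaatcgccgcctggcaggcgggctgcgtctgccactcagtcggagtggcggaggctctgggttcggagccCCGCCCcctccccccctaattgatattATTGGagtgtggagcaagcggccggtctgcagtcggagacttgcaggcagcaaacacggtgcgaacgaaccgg
Efna5, chr9:110042138-110042437, minus strand: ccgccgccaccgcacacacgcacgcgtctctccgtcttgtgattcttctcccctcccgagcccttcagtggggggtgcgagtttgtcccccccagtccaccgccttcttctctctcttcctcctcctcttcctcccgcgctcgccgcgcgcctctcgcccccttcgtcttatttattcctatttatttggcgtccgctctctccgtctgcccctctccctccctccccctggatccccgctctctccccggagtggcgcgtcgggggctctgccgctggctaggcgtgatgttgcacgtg
Sema4a, chr2:176212209-176212508, minus strand: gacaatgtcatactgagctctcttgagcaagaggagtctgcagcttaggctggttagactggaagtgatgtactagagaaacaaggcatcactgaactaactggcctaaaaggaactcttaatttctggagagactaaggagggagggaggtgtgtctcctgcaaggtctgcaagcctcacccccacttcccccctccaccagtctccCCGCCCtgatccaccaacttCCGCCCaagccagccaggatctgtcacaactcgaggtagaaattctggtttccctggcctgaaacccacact
The Sema7a window held 3 GC boxes and 1 E-box, the Epha7 window 2 GC boxes and 2 CCAAT, and the Sema4a window 2 GC boxes. The Efna5 window held none of these letters. RefSeq windows matched 41 of the 54 genes, counted with 1 window each. The shares over all windows hold every window, whatever the gene or its level. They are therefore not a like-for-like reference for the 41. GGGCGG was present in 23 of the 41 and in 33.1% of all 33469 windows. CAGCTG was present in 11 of 41 and in 15.1% of all windows, and CCAAT in 13 of 41 and in 37.5%. TATAAA was in 0 of 41 and in 14.2% of all windows. Among called genes with a window, GGGCGG was in 5 of 8 that were lower in hypothalamus and 1 of 3 that were higher.

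Semaphorins are secreted or membrane-bound ligands, and all 18 listed for both tissues passed the filter. Of these, 4 were called higher in hypothalamus, 2 lower and 12 neither, beside 13.3% higher and 13.4% lower over all genes. The semaphorins' median difference of -0.01 was above 0 under each of the 3 other scalings (0.01 to 0.20). Sema7a, which is anchored to the membrane by a lipid and also signals through integrins, led the family in hippocampus. Its levels were 158, 138, 133 and 97.2 FPKM in the hippocampal libraries and 10.7, 17.5, 15.4 and 18.2 in the hypothalamic ones. Every hippocampal library was several times above every hypothalamic one, and the difference was -3.02 ± 0.22 (log2, SE). Within hippocampus Sema7a separated from the next semaphorin, Sema5a at 18.5 ± 7.54 FPKM, and it stood at the 94.8th to 97.2nd percentile of all genes in these libraries. In hypothalamus it lay at the 64.9th to 75.3rd percentile and overlapped with its neighbours in the order, Sema4f and Sema5a.

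Sema3e, a secreted semaphorin that binds plexin D1 without a neuropilin, was the other semaphorin called lower. It measured 12.4, 18.9, 10.9 and 8.13 FPKM in hippocampus and 2.29, 2.15, 1.71 and 2.06 in hypothalamus. The tissues did not overlap, and the hypothalamic libraries were tightly grouped (-2.10 ± 0.24). Sema3e was the member of class 3 with the highest mean in hippocampus, whereas Sema3c held that place in hypothalamus.

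Sema4a, a transmembrane semaphorin, ran the opposite way. Its levels were 15.3, 13.6, 13.8 and 14.9 FPKM in hippocampus and 40.8, 48.2, 48.8 and 43.4 in hypothalamus. It had the smallest spread of the guidance genes at 5 FPKM or more in hippocampus (SD 0.07 in log2), and its difference was 1.59 ± 0.07. In hypothalamus it separated from the next in order, Sema6b at 24.7 ± 4.06 FPKM, which is listed for that tissue only, and from Sema6d at 20.9 ± 4.17 FPKM.

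Sema3c, a secreted ligand of neuropilins, measured 7.23, 8.5, 6.10 and 4.87 FPKM in hippocampus. In hypothalamus it measured 22.8, 19.6, 18.2 and 20.6 (difference 1.49 ± 0.16). All hypothalamic libraries were above all hippocampal ones. Sema3f, which signals through neuropilin-2, was low in both tissues, at 1.39, 0.759, 2.25 and 2.76 FPKM in hippocampus and 4.37, 5.95, 5.50 and 6.01 in hypothalamus. Its difference was 1.26 ± 0.26 without overlap, and its hippocampal values were higher in replicates 3 and 4 than in replicates 1 and 2.

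Sema4g, another transmembrane semaphorin, measured 3.77, 4.58, 3.81 and 3.70 FPKM in hippocampus and 5.85, 10.2, 10.8 and 11.2 in hypothalamus. Hypothalamus replicate 1 was well below the other 3 yet above hippocampus. Its difference of 1.05 ± 0.20 lay near the limit and was 0.98 without hypothalamus replicate 3 and 0.97 without replicate 4. Sema4b, at 0.94, lay just under the limit with separated libraries.

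Markers of mural and meningeal cells also differed between the tissues: 3 of the 7 that passed were higher in hypothalamus, and the list summed to 252 to 556 FPKM there and 105 to 373 in hippocampus. Of the 6 ependymal and tanycyte markers that passed, 4 were higher in hypothalamus and 1, Foxj1, was lower. All 4 pituitary markers that passed were higher, with sums of 43.9 to 329 FPKM in hypothalamus and 0.484 to 1.33 in hippocampus. Their hippocampal means were under 1 FPKM, so passing the filter already fixed the direction of their means. Cga was the highest of them in each hypothalamic library, at 293, 279, 162 and 18.2 FPKM. Gh1 and Fshb did not pass, with hypothalamic means of 0.0673 and 0.0494 FPKM. Of 7 astrocyte markers 2 were higher and 1, Slc1a2, was lower. The pituitary marker Prl was listed at 0 in all 8 libraries. The part of these markers in the higher semaphorins was not tested. Class 4 as a whole summed to 62.5 ± 0.978 FPKM in hippocampus and 103 ± 10.8 in hypothalamus. Sema6d, a transmembrane ligand of class A plexins, overlapped between tissues at 16.6, 17.9, 17.1 and 14.6 FPKM against 14.9, 23.4, 21.1 and 24.0. Sema5a, whose extracellular part holds thrombospondin repeats, overlapped too, with 17.5, 28.0, 19.0 and 9.62 FPKM in hippocampus and 12.7, 12.4, 13.9 and 11.8 in hypothalamus. Its hippocampal libraries were the more scattered. Sema6b, listed for hypothalamus only, measured 19.2, 24.4, 26.5 and 28.6 FPKM there. The 18 semaphorins summed to 271 ± 37.0 FPKM in hippocampus and 201 ± 19.97 in hypothalamus, but these sums overlapped with values as deposited and under upper-quartile or quantile scaling.

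Plexins carry the semaphorin signal into the cell, and the 4 listed summed to 70.2 ± 6.00 FPKM in hippocampus and 33.4 ± 3.68 in hypothalamus. Most of this gap lay in Plxnb3, a receptor for Sema5a. Its levels were 35.5, 36.4, 52.2 and 52.1 FPKM in hippocampus and 7.0, 8.78, 9.38 and 8.93 in hypothalamus. The tissues were far apart (-2.22 ± 0.17). Within hippocampus replicates 3 and 4, those with far more choroid plexus transcripts, were above replicates 1 and 2. Any part of choroid plexus in the Plxnb3 level was not tested. Without replicates 3 and 4 the gene was still called lower. Oligodendrocyte markers did not move with Plxnb3: none of 8 was lower in hypothalamus, and they summed to 4205 to 6079 FPKM in hippocampus and 5507 to 9173 in hypothalamus.

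The other plexins differed less. Plxna3, a partner of neuropilins for secreted semaphorins, measured 7.95, 10.003, 6.80 and 6.29 FPKM in hippocampus and 10.1, 10.6, 12.9 and 12.4 in hypothalamus, which separated narrowly at 0.52 ± 0.15. Plxna2, of the same class, overlapped with 11, 15.6, 9.65 and 8.74 FPKM against 8.13, 8.18, 9.28 and 8.80. Plxnd1, the receptor for Sema3e, was lower in hypothalamus without reaching the 2-fold limit (-0.50 ± 0.16). Endothelial markers summed to 154 to 187 FPKM in hippocampus and 84.4 to 121 in hypothalamus, with 3 of 9 called lower and 1 higher. Their part in the Plxnd1 difference was not tested.

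Ephrins of class A are anchored by a lipid and those of class B span the membrane. All 7 that were listed passed. Of these, 1 was called higher in hypothalamus and none lower, beside 13.3% and 13.4% of all genes. The median difference of the 7 was 0.44. Efna5 was the one called. It measured 2.58, 4.46, 1.87 and 5.98 FPKM in hippocampus and 14.5, 14.3, 13.9 and 12 in hypothalamus. The hippocampal libraries scattered widely but none came near the hypothalamic ones (1.72 ± 0.30). Summed over class A, ephrins were 2.37-fold higher in hypothalamus, at 22.8 ± 2.28 against 9.60 ± 1.91 FPKM. Most of that gap was Efna5, while Efna1 and Efna2 overlapped between the tissues.

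Efnb3, known as a barrier at the spinal midline, was the most abundant of the listed ephrins in both tissues. It measured 77.2, 88.9, 86.4 and 61.2 FPKM in hippocampus and 36.4, 53.9, 51.9 and 47.4 in hypothalamus. The libraries separated, but the difference of -0.72 ± 0.17 was under the limit. Efnb2, a marker of arterial endothelium as well as a guidance ligand, overlapped at 6.04, 8.29, 5.28 and 5.6 FPKM against 8.45, 9.77, 10.5 and 6.94. Efna4 had a difference of 0.96, just under the limit, and 1 library set much of it: hypothalamus replicate 1 measured 6.33 FPKM and the other 3 measured 0.887 to 1.55. It was called under 7 of the alternatives tried.

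Eph receptors showed the widest family contrast after the Slits. The 11 listed summed to 201 ± 41.7 FPKM in hippocampus and 69.0 ± 4.43 in hypothalamus, a ratio of 2.91. Of 9 that passed, 4 were called lower in hypothalamus, none higher and 5 neither, beside 13.4% lower and 13.3% higher over all genes. The median difference of the 9 was -0.76. The gap lay mainly in class A, at 149 ± 40.6 against 33.4 ± 2.33 FPKM. Class B, at 51.4 ± 7.23 against 35.7 ± 6.19 FPKM, differed less. Of the 5 class A receptors that passed, 3 were called lower, and Epha10 was higher in hypothalamus under the limit.

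Epha7, a receptor of class A ephrins, had the largest fold of the guidance genes that passed. It measured 49.4, 51.3, 43.8 and 22.9 FPKM in hippocampus and 5.69, 3.61, 3.89 and 4.0 in hypothalamus. Even hippocampus replicate 4, the lowest, was several times above every hypothalamic library (-2.97 ± 0.29). Epha4, which binds ephrins of both classes, measured 69.6, 95.5, 61.3 and 46.7 FPKM in hippocampus and 14.8, 11, 10.7 and 10.7 in hypothalamus. The tissues did not overlap (-2.40 ± 0.24).

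Epha5, a receptor for Efna5, measured 34.8, 40.4, 26.7 and 22.0 FPKM in hippocampus and 7.56, 5.29, 7.37 and 6.94 in hypothalamus (-2.01 ± 0.22). Ephb6, which lacks kinase activity, measured 33.1, 26.4, 19.6 and 24.3 FPKM against 5.75, 7.74, 8.04 and 8.23 (-1.66 ± 0.18). For both, every hippocampal library was above every hypothalamic one. Ephb1, a kinase that binds class B ephrins, overlapped, with 18.9, 13.4, 20.3 and 17.1 FPKM in hippocampus and 15.3, 22.2, 22.3 and 22.9 in hypothalamus. Epha10, another receptor without kinase activity, was the Eph receptor that separated upward in hypothalamus, by 0.58 ± 0.12. Epha3 was lower without reaching the limit (-0.76 ± 0.22), and Ephb2 and Ephb3 overlapped.

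**Figure D3:**
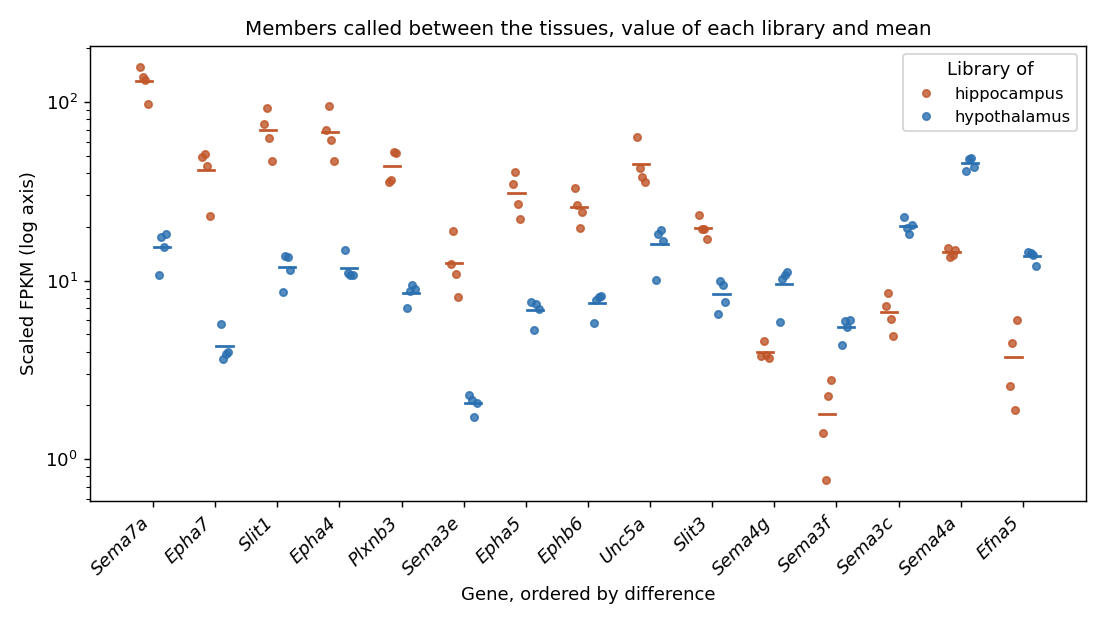
FPKM on a log axis of the 15 called guidance genes, ordered by difference, with a point for each library and a short line at the mean of each tissue. For every gene the 4 hippocampal and 4 hypothalamic points do not overlap. Efna5 scatters widely in hippocampus, at 1.87 to 5.98 FPKM.

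Slits, secreted repellents, had the widest family contrast. They summed to 104 ± 23.4 FPKM in hippocampus and 27.2 ± 3.85 in hypothalamus, a ratio of 3.83. All 3 were lower in hypothalamus without overlap, and 2 passed the limit, beside 27.7% and 13.4% of all genes. Slit1, the brain-enriched member, measured 75.5, 92.9, 62.8 and 46.8 FPKM in hippocampus and 8.68, 13.7, 13.6 and 11.5 in hypothalamus. The lowest hippocampal library was above 3 times the highest hypothalamic one (-2.43 ± 0.25).

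Slit3 measured 23.1, 19.4, 19.4 and 17.1 FPKM in hippocampus and 6.52, 9.93, 9.40 and 7.56 in hypothalamus. Its difference of -1.16 ± 0.15 did not overlap, and it was -0.94 with values as deposited and -0.99 without replicate 1 of both tissues. Slit2 lay at -0.99 ± 0.22, just under the limit, and was called under 8 of the alternatives tried.

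Robo receptors, which bind Slits, were lower than the Slits in level. They summed to 19.3 ± 4.84 FPKM in hippocampus and 11.8 ± 2.66 in hypothalamus, and these sums overlapped. Robo2 measured 10.9, 12.6, 8.40 and 7.71 FPKM in hippocampus and 4.73, 5.10, 4.33 and 4.50 in hypothalamus. It separated at -0.92 ± 0.16, under the limit. Robo1 overlapped, with 8.31, 9.66, 6.04 and 4.28 FPKM in hippocampus and 3.49, 9.32, 6.39 and 5.63 in hypothalamus, and it had the widest spread of the guidance genes at 5 FPKM or more in hypothalamus (SD 0.49 in log2). Robo3, a divergent member that regulates midline crossing, was under the filter but separated: 2.11, 1.15, 1.31 and 0.723 FPKM in hippocampus against 0.0478, 0.129, 0.0830 and 0.0686. Robo4, an endothelial receptor, overlapped near 1 FPKM in both tissues.

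Netrins were low and called in neither direction. Ntn4, a basement membrane netrin, measured 6.46, 5.57, 5.94 and 5.27 FPKM in hippocampus and 6.45, 9.40, 8.19 and 8.07 in hypothalamus. Ntn1, the classical midline attractant, measured 3.54, 2.14, 1.92 and 2.93 FPKM against 2.71, 5.35, 5.61 and 3.76. For both, hypothalamus replicate 1 was the library that reached into the hippocampal range. Ntn5 stayed under 1 FPKM in all 8 libraries.

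Unc5 receptors, which turn the netrin response to repulsion, summed to 79.0 ± 17.6 FPKM in hippocampus and 41.6 ± 8.47 in hypothalamus. Unc5a was the 1 of 4 called, beside 26.7% of all genes in either direction. It measured 63.9, 42.9, 38.2 and 35.7 FPKM in hippocampus and 10.1, 18.2, 19.2 and 16.7 in hypothalamus. Replicate 1 was the highest hippocampal and the lowest hypothalamic library, and the tissues did not overlap (-1.44 ± 0.27). Unc5b, also a vascular receptor, separated under the limit, with 17.0, 18.5, 20.6 and 15.2 FPKM in hippocampus and 6.74, 12.7, 13.0 and 12 in hypothalamus (-0.67 ± 0.22). Unc5c and Unc5d overlapped. Unc5d ranged from 4.82 to 22.5 FPKM over the hippocampal libraries, the widest spread of the guidance genes at 5 FPKM or more there (SD 0.83), and from 6.53 to 7.19 FPKM in hypothalamus.

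The make-up of each family, as a percentage of its summed FPKM in a library, does not depend on the scaling between tables. The sums hold only genes listed for both tissues, so the semaphorin sum leaves out Sema6b. Family members listed for neither tissue, such as Plxna1, are left out too, so each share is of the listed genes only. Sema7a held 48.4% ± 3.55 of the semaphorin sum in hippocampus and 7.61% ± 1.07 in hypothalamus (SD, n = 4). Sema4a held 5.41% ± 0.963 and 22.6% ± 1.34. No single semaphorin therefore dominated in hypothalamus as Sema7a did in hippocampus. Plxnb3 held 62.3% ± 8.44 of the plexin sum in hippocampus and 25.5% ± 0.871 in hypothalamus, where Plxna3 led with 34.4% ± 1.48.

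Among Eph receptors the leading gene also differed. Epha4 held 33.7% ± 3.84 of the sum in hippocampus and 17.3% ± 4.25 in hypothalamus. Ephb1 held 9.08% ± 2.73 and 29.8% ± 3.60, and in hypothalamus it separated from Epha4, the next in order. Class A receptors made up 73.6% ± 5.80 of the Eph sum in hippocampus and 48.6% ± 6.28 in hypothalamus. Efnb3 led the ephrins in both tissues, with 79.6% ± 4.19 and 54.5% ± 3.82, and class A ephrins held 10.04% ± 3.25 and 26.6% ± 4.77. Slit1 held 66.1% ± 4.38 and 43.5% ± 4.93 of the Slit sum, and in hypothalamus the 3 Slits overlapped with their neighbours in the order. Unc5a held 57.3% ± 8.81 and 38.1% ± 2.61 of the Unc5 sum.

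**Figure D4:**
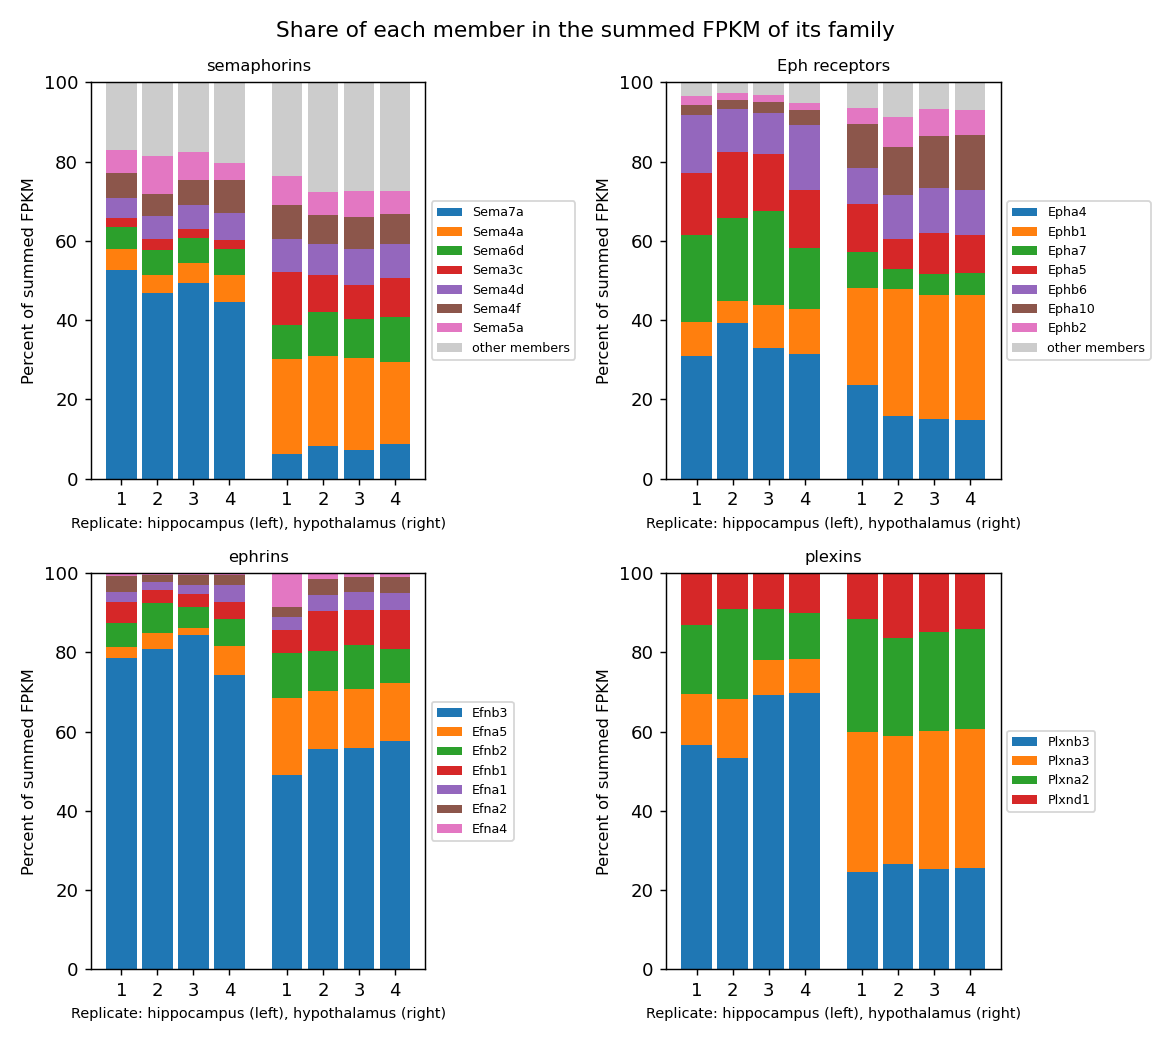
Percentage of the summed FPKM of a family held by each member, as 1 stacked bar for each library, for semaphorins, Eph receptors, ephrins and plexins. Sema7a takes a mean of 48.4% of the hippocampal semaphorin bars, and Ephb1 a mean of 29.8% of the hypothalamic Eph bars.

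Co-receptors and intracellular effectors of the same pathways were taken from 5 lists of 108 genes, of which 98 were in both tables and 92 passed the filter. Of the 92, 13 were called higher in hypothalamus (14.1%), 21 lower (22.8%) and 58 neither, beside 13.3% and 13.4% of all genes, with a median difference of -0.15 that turned to 0.05 with values as deposited. Nrp1, a co-receptor of secreted semaphorins, measured 18.0, 23.0, 15.7 and 10.5 FPKM in hippocampus and 6.87, 7.13, 6.37 and 5.18 in hypothalamus. The libraries separated (-1.23 ± 0.24), while Nrp2 and the netrin receptor Dcc overlapped. L1cam, a cell adhesion partner of Nrp1, was higher in hypothalamus, at 84.7 ± 21.4 against 33.2 ± 5.14 FPKM. Mical2, of a family of enzymes that disassemble actin downstream of plexins, was lower, at 12.2 ± 1.35 against 93.5 ± 12.7 FPKM. Of the 25 semaphorin and plexin partners that passed, 3 were higher, 7 lower and 15 neither. Dpysl2, a microtubule-binding mediator of the semaphorin response, had the highest mean of that list.

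Among 19 partners and effectors of ephrins and Ephs, 2 were higher, 6 lower and 11 neither. Over all genes 13.3% were higher and 13.4% lower. Kalrn, an exchange factor that acts in dendritic spines, measured 68.8, 70.1, 60.6 and 50.9 FPKM in hippocampus and 4.01, 5.53, 4.82 and 5.43 in hypothalamus. It had the largest difference of the effectors, at -3.42 ± 0.14, with no overlap. Grb10, a signalling adaptor, was higher in hypothalamus, at 40.8 ± 4.08 against 14.7 ± 2.78 FPKM. Of 20 Slit and Robo partners, 3 were higher, 5 lower and 12 neither. Nell2, a secreted ligand of Robo3, measured 759, 554, 611 and 605 FPKM in hippocampus and 83.3, 69.1, 67.3 and 67.2 in hypothalamus. The tissues were far apart, with a difference of -3.12 ± 0.12.

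Of 13 netrin partners, 3 were higher, 1 lower and 9 neither, beside the same 13.3% and 13.4% of all genes. Dock1, an exchange factor for Rac downstream of DCC, was higher in hypothalamus, at 15.0 ± 2.86 against 4.13 ± 1.13 FPKM. Hippocampal neuron markers were lower in hypothalamus beside all of these lower genes, and their part was not tested.

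The guidance genes varied between libraries of 1 tissue about as other genes did. Their median SD in log2 was 0.27 over 32 genes in hippocampus, beside 0.26 for all genes of at least 5 FPKM, and 0.23 over 36 genes in hypothalamus, beside 0.20. The split between loci of 1 symbol differed between libraries for some members. In hippocampus the smaller locus of Epha4 held 0.617 FPKM as deposited in replicate 1 and 13.4 to 15.7 in the others. Taking the larger locus alone, Epha4 was still called lower. In hypothalamus the larger locus of Unc5c was listed at 0 in replicate 1, where its other locus held 6.29 FPKM. The depth of these libraries is unknown, since the tables give no counts, so values under about 1 FPKM are weakly supported.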

How the data were processed

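Per the labels' protocols, 8 libraries of poly-A selected RNA were sequenced by Illumina HiSeq. For each tissue there is 1 table of FPKM values as deposited by the authors, with a status per library. Tools named in the submitters' processing notes are Cufflinks, Cuffdiff, Bowtie, TopHat, Bowtie2 and TopHat2, on build rn5. Their versions were not given in the sources used here. FPKM were summed over loci of a symbol and scaled by 1 median-of-ratios factor per library over the 15892 shared symbols (0.892 to 0.950 for hippocampus, 1.07 to 1.12 for hypothalamus). Spread within a tissue used factors from its own table. No value of a guidance gene had a status other than OK. Depth is unknown, so no counting interval is given. Low values fell on common steps for 85.8% to 92.0% of loci between replicates 2 to 4 (within 0.01 in natural log) and for 7.38% to 10.6% against replicate 1, so reads were not recovered.

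Differences are mean log2(FPKM + 1) with a pseudocount of 1 FPKM. Alternatives were values as deposited, upper-quartile and quantile scaling, a pseudocount of 0.1, no filter or a mean of 5 FPKM, single-locus symbols, OK values only, leaving out each library or replicate 1, and limma 3.58.1 with and without a replicate block, in Python 3.11.15 and R 4.3.3. The members, gene lists and call rule were chosen with earlier results of these data known. Genes named with values are the 2 highest of each family in each tissue and the called members. Of each list, the called genes with the largest differences and the gene with the highest mean could be named. Not all of these are named. Among those left out are Grip2, Arhgef11, Rgma, Pak2 and Vasp (higher) and Rasa1, Met, Mcf2l and Cap2 (lower). Others named were chosen after their values were seen. The comparison was tested on simulated data. Promoters are from RefSeq on GRCr8, a build other than that of the tables. Genes of 1 of the 5 effector lists are counted in the totals, and that list is not reported here.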

Additional observations from a re-analysis of the deposited data

Results flagged for a closer look

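In 13 of 114 groups of 4 libraries (11.4%), 1 library lay far from the other 3. Chance flags about 1 in 20 groups where groups are independent. Here all groups share the same libraries and some are sums of the same genes, so that rate is only a rough guide. In 8 of the 13 the library was hypothalamus replicate 1, lying low. It measured 15.3 FPKM for Ephb1 (the others 22.2 to 22.9), 4.16 for Sema3b (7.52 to 8.29) and 8.58 for Sema4b (12 to 12.8). It measured 5.85 for Sema4g (10.2 to 11.2), 1.41 for Sema5b (2.74 to 2.94) and 6.74 for Unc5b (12 to 13.0). The semaphorin sum was 171 FPKM there (209.6 to 212 in the others) and the Unc5 sum 29.1 (43.5 to 46.9). The same library was high for Epha4, at 14.8 FPKM (10.7 to 11 in the others).

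Hypothalamus replicate 2 was high for Epha3, at 1.02 FPKM against 0.470 to 0.545. In hippocampus, replicate 1 was high for Efnb1, at 5.15 FPKM against 3.33 to 3.46, and for the netrin sum, at 10.7 against 8.33 to 8.49. Hippocampus replicate 2 was high for Sema4g, at 4.58 FPKM against 3.70 to 3.81.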

How the results depend on the processing

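The counts of 5 guidance genes higher and 10 lower in hypothalamus stayed at 4 to 7 and 8 to 14 over the alternatives, and no difference of a guidance gene changed sign among those called. Of the 15 called genes, 13 were called under every alternative in which they had a value, and Sema4g and Slit3 were not. Leaving out libraries can hardly end a separation, so those alternatives mainly tried the size limit. With values as deposited, the median difference of the members was 0.0276, 2 ephrins were higher and 1 Slit was lower, and 65.3% of calls over all genes were higher in hypothalamus, beside 49.8% in the reported scaling (58.4% with upper-quartile scaling). There were 2 ephrins higher with upper-quartile scaling, a pseudocount of 0.1 FPKM or both tissues without replicate 1, and 1 to 2 when single libraries were left out. There was 1 Robo receptor lower with a pseudocount of 0.1 FPKM or no filter, and 0 to 1 when single libraries were left out. With single-locus symbols only, 1 Slit was lower, which leaves fewer genes, and the hypothalamic shares of Unc5a and Sema4a were 46.8% and 25.2% of smaller sums. With the larger locus in place of the sum, a choice made after seeing the data, Unc5a held 41.7% in hypothalamus and Epha4 29.0% in hippocampus. Without hippocampus replicates 3 and 4, also chosen after seeing the data, 1 Robo and 2 Unc5 receptors were lower. Apart from the locus settings, the cause was not tested.

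Between the tissues, deviations of same-numbered libraries correlated at -0.08, -0.06, 0.08 and 0.14. Those of differently numbered libraries correlated at -0.20 to 0.20. Whether same-numbered libraries came from the same animal was not tested. The limma fit with a replicate block (adjusted p under 0.05 and the same 2-fold limit) called 5 guidance genes higher and 10 lower, as did the fit without it. Over all genes the block gave 1459 higher and 1439 lower, and no block 1455 and 1431. Depth is unknown and 4 libraries a tissue limit the precision.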
